A study of Mus musculus with 23 samples.

Results

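Mouse muscle precursor cells that had been in differentiation conditions for 2 days were compared with the same kind of cells kept proliferating. The comparison used 3 arrays of day 2 myotubes and 3 of proliferating myoblasts, 6 of the 23 arrays of a series that also holds stem cells, myoblasts of passage zero, myotubes of days 1 and 4 and whole muscle. The 6 samples were taken by their group label, and every probe that was not a control was read. All 6 came from primary cells of male C57BL/6J mice, and the labels mention no transgene, no knockout and no drug in either group. Day 2 myotubes were made from confluent myoblasts on Matrigel, a basement membrane extract, in DMEM with 2% horse serum. Proliferating myoblasts were at passages 8-10 on collagen in Ham's F-10 with 20% fetal bovine serum and 5 ng/ml of basic fibroblast growth factor (bFGF). Medium, serum, growth factor, cell density and surface therefore changed together with differentiation, and their parts cannot be told apart. The sample titles carry the numbers 21, 26 and 28 in both groups, taken here as 3 cultures, and values are given in that order throughout. The labels do not say whether the cultures came from different animals, so the spread between samples may be technical. The p-values use the spread within groups over 21 samples of 7 groups, not only that of these 6.

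Myoblasts are the dividing progeny of satellite cells, the stem cells of skeletal muscle. When mitogens are withdrawn they leave the cell cycle for good, express the transcription factor myogenin, fuse with each other and build sarcomeres, the contractile units of muscle. The myogenic regulatory factors, a family of basic helix-loop-helix (bHLH) proteins that bind E-boxes, work with MEF2 proteins to switch on muscle genes, while Id proteins and growth factor signals hold that programme back in dividing cells.

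Levels are log2 fluorescence intensities minus the 75th percentile of the array's own spots, so 0 is that percentile and a step of 1 is a 2-fold difference. Levels of different probes are not compared. A gene was tested where its probe was well above background on all 3 samples of at least 1 group, and was called higher or lower where the change was at least 2-fold and the p adjusted by Benjamini and Hochberg was under 0.05. Changes are day 2 minus proliferating on the log2 scale, with ± the standard error of the fit, and folds are given with their direction. The spread was estimated over 21 samples of 7 groups with limma, and a fit to these 6 samples alone, which did not make 60 of the 220 named calls, is given beside results that it changed. Unless stated otherwise, the culture as a block means a fit to the 12 samples of proliferating myoblasts and myotubes of days 1, 2 and 4. That fit changes the samples that set the spread as well as adding the block, and the parts of the 2 were not told apart. Where a probe was not well above background on any sample of 1 group, only a bound is given, computed against the dimmest signal that was still measurable there. Such a bound holds for this processing only, and alternative settings gave smaller changes for several bounded genes.

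The proliferating sample of culture 21 stood apart from the others. The 75th percentile was 338.1, 461.1 and 533.3 intensity units on the day 2 arrays, against 87.7 on the dim array of that sample and 494.4 and 624.1 on the other proliferating arrays. The 3 day 2 samples correlated at 0.966 to 0.984 over the genes tested, while that sample correlated with the other proliferating samples at 0.893 and 0.870, against 0.967 between those. The median SD of a gene was 0.28 in day 2 myotubes and 0.66 in proliferating myoblasts. Leaving that sample out moved the fold of 50 of 220 named calls by more than 1.5 times and ended 9 of them. Leaving out the proliferating sample of culture 28 moved 39 and ended 9. Each of 3 slides held 1 sample of each group, and the spots were read on 1 scan day.

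The cell type labels were checked against 7 muscle genes. Myod1, Myog, Des, Cdh15, Ncam1, Actc1 and Myh3 were well above background in all 6 samples, so both groups carried markers of committed muscle cells. Markers of other cells were read as whole lists. Above background in none of the 6 samples were 5 of 12 adipocyte, 10 of 18 endothelial and 3 of 12 smooth muscle and pericyte markers. Among these were Adipoq, Cdh5 and Myh11. The same held for 2 of 16 fibroblast, 4 of 16 leukocyte and 2 of 13 Schwann and nerve markers. The other members were above background in at least 1 sample, and those called are given below. The fibroblast marker Pdgfra was above background in 0 of 3 day 2 samples and in 2 of 3 proliferating samples.

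Across the array, 2755 of 18323 genes tested were called higher in day 2 myotubes, or 15%, and 1827 were called lower, or 9.97%. Counts of list members below are to be read beside these shares. The median gene changed by 0.09. At least 4-fold changes were found for 1101 higher and 972 lower genes, and at least 16-fold changes for 175 higher and 212 lower genes. Of the calls, 153 higher and 116 lower genes rested on a bound. The samples of the groups did not overlap for 2642 of the higher and 1754 of the lower genes. The 6-sample fit called 717 higher (3.91%) and 749 lower (4.09%). Without the proliferating sample of culture 21, 2717 of 20491 genes were higher (13.3%) and 2498 were lower (12.2%). With median scaling the split was 3837 higher and 1062 lower, and that scaling moved the median gene to 0.56. For several genes at the edge of background the change was smaller with normexp background correction and with the authors' deposited values. It was -5.16 and -5.39 for Gzmd in place of -8.72, -3.97 and -4.08 for Bub1b in place of -5.86, -1.81 and -1.67 for Lfng in place of -4.16, 2.4 and 2.75 for Heyl in place of 3.94, and 1.09 and 1.56 for Hdac9 in place of 2.74. Cd34, Itga9, Cxcl1, Tap1 and Trdn were also not well above background in every sample of both groups. Their smallest changes over the alternative settings were -4.68, 2, -2.45, -1.42 and 4.43, in place of -6.37, 3.21, -4.04, -2.67 and 5.78. Where a list below is given with 0 members called in 1 direction by limma in the 21-sample fit, 0 members had an unadjusted p under 0.05 in that direction either, except for the energy buffers (1 lower), the stress responses (2 lower) and the endothelial markers (1 lower).

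**Figure D1:**
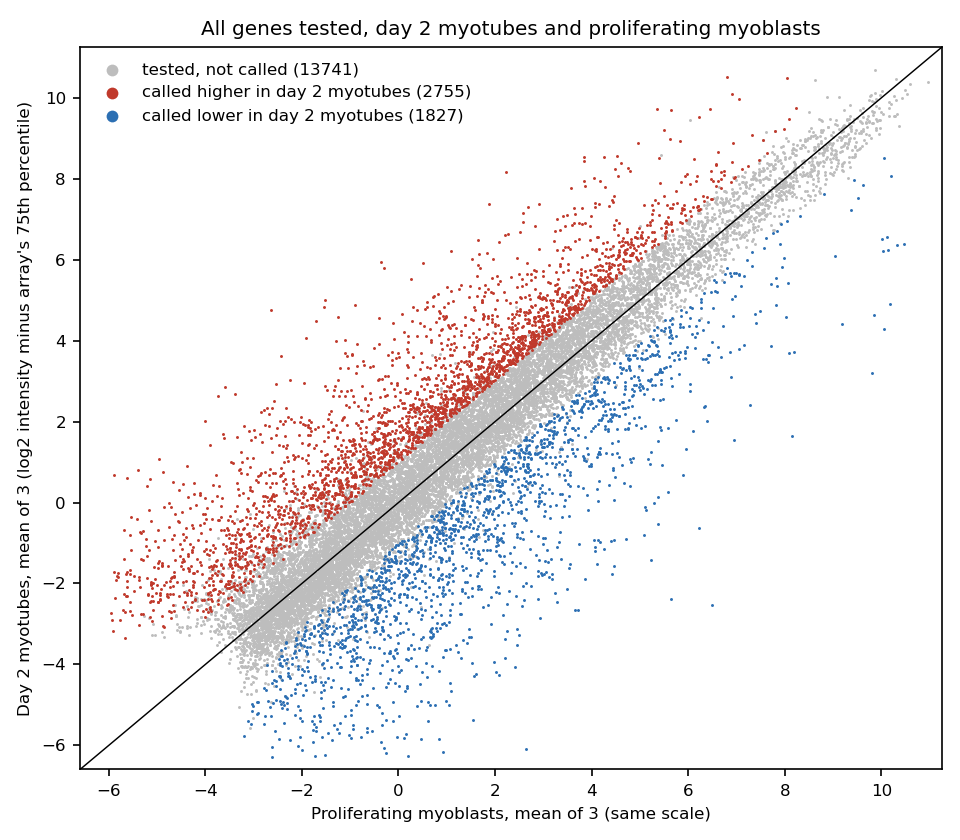
Mean level of each tested gene in day 2 myotubes (vertical) against proliferating myoblasts (horizontal), as log2 intensity minus the array's 75th percentile, 3 samples a group. Red points are the 2755 genes called higher and blue points the 1827 called lower, and the diagonal is no change.

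Among the myogenic regulatory factors, Myog was the 1 of 3 tested members that passed. Myogenin, the factor that starts terminal differentiation, (probe at chr1:136188874-136188933 of mm9) stood at 7.89, 8.28 and 7.55 in day 2 myotubes, against 6.07, 5.96 and 4.2 in proliferating myoblasts. All 3 day 2 samples lay above all proliferating ones, and the change was 2.5 ± 0.54 (5.65-fold, adjusted p = 0.0022). It was 1.89 without the proliferating sample of culture 28, and in the 6-sample fit the adjusted p was 0.06. Myod1, whose protein marks committed myoblasts, was at 5.53, 5.86 and 5.07 in day 2 myotubes and at 6.31, 6.38 and 5.93 in proliferating myoblasts. Its groups did not overlap, but the change of -0.72 did not pass (adjusted p = 0.19) except under quantile normalization, where it was -1.02 (adjusted p = 0.0066). Myf6, the last of the family to act in fibres, had a change of 2.57 that did not pass (adjusted p = 0.11) and ranged over samples from -2.85 to 2.76 on day 2. It passed without the day 2 sample of culture 26 (4.2, adjusted p = 0.0042) with median scaling (3.04) and with the culture as a block (adjusted p = 0.031 each). Myf5 was not well above background in any of the 6 samples.

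Mef2c and Mef2d, partners of the myogenic factors, were higher. Mef2c read 3.47, 2.36 and 2.80 in day 2 myotubes, against -0.99, -1.39 and -1.55 in proliferating myoblasts. The groups were far apart, with a change of 4.19 ± 0.55 (18.3-fold, adjusted p = 2.4e-05). Mef2d changed by 2.48 ± 0.36 (adjusted p = 6.3e-05), whereas Mef2a overlapped between the groups and did not pass (0.45, adjusted p = 0.58). Tead4, a factor that binds the MCAT element of muscle genes, was 12.5-fold higher (adjusted p = 1.4e-05). Hdac9, a class IIa deacetylase that represses MEF2, was 6.66-fold higher (adjusted p = 0.00017). Six2, a homeobox factor, was 5.98-fold lower (adjusted p = 0.021), a call lost in the 6-sample fit, without the day 2 sample of culture 26 or 28 and without the proliferating sample of culture 21. In the list of MEF2 factors and cofactors, 5 of 26 tested members were higher and 3 lower, near the background, with a median of 0.13, against 4 and 1 in the 6-sample fit. The calls not yet named were Kat2b, higher, and Hdac7 and Eya2, lower, which were picked out after their values were seen.

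Id1, Id2, Id3 and Snai2, inhibitors of the bHLH factors, were lower. Id3, which titrates E proteins away from the myogenic factors, was at 2.18, 1.12 and 1.32 in day 2 myotubes, against 7.23, 7.20 and 6.43 in proliferating myoblasts. No sample of either group came near the other group, and the change was -5.41 ± 0.60 (42.6-fold, adjusted p = 5.7e-06). Id1 was 17.1-fold lower (adjusted p = 0.00096) and Id2 8.83-fold lower (adjusted p = 0.0018). The Id2 call was lost in the 6-sample fit. Snai2, a repressor that occupies E-boxes of muscle genes in dividing myoblasts, was 6.72-fold lower (adjusted p = 7.2e-05). Hes6 levels overlapped between the groups (-0.24, adjusted p = 0.76). Over the whole list of bHLH partners and inhibitors, 4 of 16 tested members were higher and 5 lower. Picked out after their values were seen, the higher ones were Bhlhe40, Scx, Tcf4 and Zeb1, and the fifth lower one was Tcf3. By limma the 6-sample fit called 0 higher, with 4 at an unadjusted p under 0.05, and 4 lower.

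Genes of the satellite cell and progenitor state were mixed, with 7 of 17 tested members lower and 3 higher. Pax7, the transcription factor that defines satellite cells, was at 0.54, 1.11 and 0.78 in day 2 myotubes and at 1.61, 3.87 and 2.67 in proliferating myoblasts. It stayed measurable in every day 2 sample while lying below every proliferating one (-1.91 ± 0.44, 3.75-fold, adjusted p = 0.0032), and the call was lost in the 6-sample fit and under median scaling. Pax3 overlapped between the groups (-1.01, adjusted p = 0.15) and passed without the proliferating sample of culture 21 (-1.42, adjusted p = 0.043) and with array weights (-1.72, adjusted p = 0.0027). Cd34, a surface sialomucin of quiescent satellite cells, was 82.8-fold lower (adjusted p = 0.00012). Its change was uneven, from -5.50 without the day 2 sample of culture 21 and -5.61 without the proliferating sample of culture 26 to -7.24 without the day 2 sample of culture 26 and -7.21 without the proliferating sample of culture 21. The adhesion molecule Vcam1 was 8.53-fold lower (adjusted p = 0.00015) and the proteoglycan Sdc3 6.96-fold lower (adjusted p = 0.00027). Desmin, the intermediate filament of muscle, was higher (Des, 4.32-fold, adjusted p = 0.0025). Its change was 1.52 without the proliferating sample of culture 28, and its call was lost in the 6-sample fit. Cdh15 and Itga7, picked out after their values were seen, were the other 2 higher members, and by limma the 6-sample fit called 0 higher, with 3 at an unadjusted p under 0.05, and 4 lower.

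Of the Notch pathway, 1 of 15 tested members was higher and 2 lower, which is near the background, and without the proliferating sample of culture 21 the counts were 3 and 4 of 17. Heyl, a Notch target gene, was 15.4-fold higher (adjusted p = 0.00015), and its change was 4.83 without the proliferating sample of culture 26. Lfng, the glycosyltransferase that modifies Notch receptors, was not above background in day 2 myotubes and was at least 7.49-fold lower (adjusted p = 3.4e-05). Dlk1, a non-canonical Notch ligand, was 8.09-fold lower (adjusted p = 0.0021), and with the authors' deposited values the change was -1.4 in place of -3.02 and the call was lost (adjusted p = 0.057).

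Promoters are shown for genes that represent the main groups, from 250 bases before to 50 after the RefSeq start on GRCm38.p6, with the motifs named beside each in capitals and other searched motifs in lower case. The myogenin promoter (chr1:134289754-134290053, plus strand) and the cardiac actin promoter (chr2:114052826-114053125, minus strand) are shown with E-boxes, CANNTG, and in Actc1 also a CArG box, the serum response element core, in capitals.
Myog: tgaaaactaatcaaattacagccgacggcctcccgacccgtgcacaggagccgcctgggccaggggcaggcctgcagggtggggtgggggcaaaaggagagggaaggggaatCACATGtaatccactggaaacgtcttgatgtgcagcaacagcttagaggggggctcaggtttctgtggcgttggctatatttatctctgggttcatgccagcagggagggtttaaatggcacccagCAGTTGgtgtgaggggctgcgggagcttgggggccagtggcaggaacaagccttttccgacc
Actc1: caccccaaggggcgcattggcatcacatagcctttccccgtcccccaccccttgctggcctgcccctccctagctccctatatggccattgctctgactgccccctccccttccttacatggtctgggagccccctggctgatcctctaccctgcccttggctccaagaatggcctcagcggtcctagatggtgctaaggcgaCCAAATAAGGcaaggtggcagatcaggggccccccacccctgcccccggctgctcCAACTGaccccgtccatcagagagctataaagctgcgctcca
Both E-boxes of the myogenin window lie before the start. Such 6-letter E-boxes are common, since 63.5% of the 10100 tested genes with a promoter in the table held one and 72.1% of all 27025 promoters did. Among genes called higher 66.8% of promoters held one, and among those called lower 61.9%. The CArG box was in 1.36% of promoters of genes called higher, 2.03% of those called lower and 1.46% of those tested. Motifs were searched on both strands. The narrower E-box CAGCTG was held by 19.2% of promoters of genes called higher, 16.6% of those called lower and 15.3% of all tested. In the list of excitation-contraction coupling genes it was held by 9 of 19 promoters, or 47.4%. The MEF2 consensus was in 9 of 29 promoters of Z disc, M band and titin partner genes (31%), in 3.00% of the promoters of higher genes, in 1.82% of those tested and in 3.26% of all promoters in the table.

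**Figure D2:**
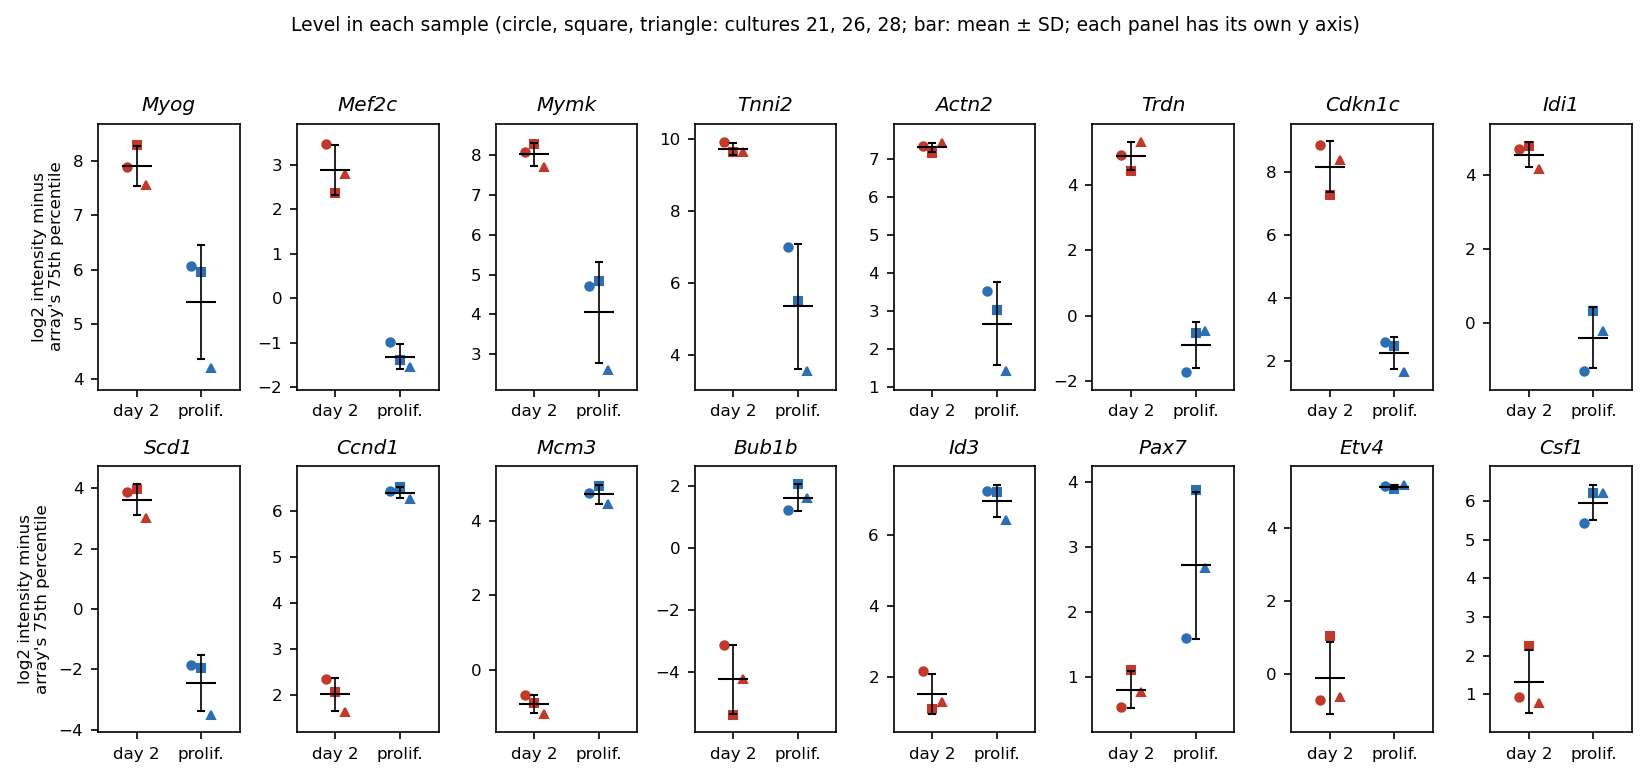
Level of 16 genes in each sample, as log2 intensity minus the array's 75th percentile, with day 2 myotubes (red) left of proliferating myoblasts (blue). The bar is the mean ± SD of 3 samples, symbols are the cultures, each panel has its own axis, and in none of the 16 genes do the groups overlap.

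The machinery of cell division was lower. Of 43 tested members of the DNA replication list, 39 were lower and 0 higher, with a median of -3.09. Of 48 tested members of the mitosis and kinetochore list, 45 were lower and 0 higher, with a median of -4.73, or -4.65 with bounded members at their bound. The 6-sample fit called 32 and 42 of them lower. Within slides the replication median was -2.98, -2.88 and -3.32, and the mitosis median was -4.34, -5.09 and -4.73.

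Among replication genes, Mcm3, a subunit of the replicative helicase (probe at chr1:20793136-20793195 of mm9), was at -0.67, -0.89 and -1.16 in day 2 myotubes, against 4.74, 4.93 and 4.44 in proliferating myoblasts. Each group lay within 0.49, and the change was -5.60 ± 0.44 (48.6-fold, adjusted p = 5e-07). Mcm5 was 35.2-fold lower (adjusted p = 2.9e-06) and Tk1, the S phase thymidine kinase, 72.4-fold lower (adjusted p = 2.9e-06). Chaf1b, a subunit of the chromatin assembly factor that follows the fork, was at -0.37, -0.91 and -1.09 in day 2 myotubes, against 5.66, 5.33 and 4.27 in proliferating myoblasts (58.8-fold lower, adjusted p = 1.4e-06).

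Several mitotic genes were below the measurable range on day 2. Ccnb1, the cyclin of mitotic entry, stood at -1.04, -2.31 and -2.30 in day 2 myotubes, against 3.12, 4.58 and 3.87 in proliferating myoblasts (53.4-fold lower, adjusted p = 2.9e-05). The checkpoint kinase Bub1b was at -3.14, -5.38 and -4.22 in day 2 myotubes, against 1.20, 2.05 and 1.59 in proliferating myoblasts. It was above background in 1 of 3 day 2 samples, and the change was -5.86 ± 0.67 (adjusted p = 6.7e-06). Nek2, Nuf2 and Bub1, proteins of the centrosome and the kinetochore, were not above background in any day 2 sample, which gives at least 33.4-fold, 33.8-fold and 27.5-fold lower levels. Ska1, another kinetochore protein, was at least 47.1-fold lower and the kinase Melk at least 61.4-fold lower. For Nek2, Nuf2, Bub1, Ska1 and Melk the smallest log2 changes over the alternative settings were -3.38, -3.32, -3.29, -3.82 and -4.07. These are smaller than the bounds. Mki67 and Top2a, the usual markers of cycling cells, were 31.6-fold (adjusted p = 0.00051) and 42.6-fold lower (adjusted p = 8.3e-05). Top2a was not well above background in every sample of both groups, and its change of -5.41 was as small as -3.97 in an alternative setting. For Mki67 the proliferating sample of culture 21 was at 2.22, below 4.87 and 5.05 of the other cultures, and without it the change was -5.89. Cenpe, a kinetochore motor, was likewise at 0.93 in that sample, against 3.65 and 4.08, and its change of -4.72 was -5.70 without it and -4.12 without the proliferating sample of culture 28. Cdk1, the kinase that cyclin B activates, was among the 3 members not called, with uneven samples and a change of -4.14 ± 1.80 (adjusted p = 0.10).

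Of 21 tested G1 cyclins, E2F factors and other regulators, 11 were lower and 1 higher, E2f2, picked out after its value was seen, which had a 6.79-fold change, and 14 of 24 were lower without the proliferating sample of culture 21. Cyclin D1, the growth factor-induced partner of CDK4, was at 2.36, 2.07 and 1.64 in day 2 myotubes, against 6.42, 6.51 and 6.26 in proliferating myoblasts (20.7-fold lower, adjusted p = 3.7e-06). Cyclin D3 was at 7.75, 7.97 and 7.60 in day 2 myotubes and at 7.49, 7.64 and 6.64 in proliferating myoblasts, and its change of 0.52 did not pass (adjusted p = 0.42). Mybl2, the B-Myb activator of mitotic genes, was 33.2-fold lower (adjusted p = 1.5e-06), and Cdc25c, the phosphatase that triggers mitosis, at least 16.3-fold lower. The smallest Cdc25c change over the alternative settings was -2.54 on the log2 scale, which is smaller than that bound.

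Of the inhibitors of cyclin-dependent kinases, Cdkn1c was higher in the 21-sample and the 6-sample fit. Cdkn1c, the imprinted gene for p57 (probe at chr7:150644753-150644812 of mm9), was at 8.86, 7.27 and 8.37 in day 2 myotubes, against 2.58, 2.47 and 1.64 in proliferating myoblasts. The lowest day 2 sample was more than 4 units above the highest proliferating one, and the change was 5.94 ± 0.76 (61.3-fold, adjusted p = 2.1e-05). Cdkn1a, the gene for p21, was 4.19-fold higher (adjusted p = 0.0046) and Cdkn1b, for p27, 2.33-fold higher (adjusted p = 0.0048), but both calls were lost in the 6-sample fit and when the probes of a gene were averaged, and that of Cdkn1b also with the authors' deposited values, where its change was 0.98. Cdkn2c overlapped between the groups (0.99, adjusted p = 0.23). The retinoblastoma gene Rb1 was 7.65-fold higher (adjusted p = 0.0004), with a change of 2.12 without the proliferating sample of culture 21 and 3.55 without that of culture 26, and its relative Rbl1 was 4.96-fold lower (adjusted p = 0.0032), with -3.06 without the proliferating sample of culture 21. Both were lost in the 6-sample fit, and Rbl1 also with median scaling (adjusted p = 0.06). In the list, 7 of 20 members were higher and 2 lower, against 1 and 1 in the 6-sample fit. Of 26 genes of ribosome biogenesis, 3 were lower (Fbl, Gar1 and Utp20), near the 9.97% of all genes tested, and 0 higher. There were 5 lower without the proliferating sample of culture 21 and 0 by limma in the 6-sample fit, where 2 had an unadjusted p under 0.05. The Gar1 and Utp20 calls were also lost with median scaling (adjusted p = 0.17 and 0.25).

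The promoters of a mitotic cyclin, Ccnb2 (chr9:70421505-70421804, minus strand), and of the helicase gene Mcm5 (chr8:75109259-75109558, plus strand) are shown as examples of cell division genes. Capitals mark CCAAT, read as ATTGG on the other strand, TTTGAA (the CHR element of late cell cycle genes) in Ccnb2, and the E2F letters TTTGGCGC in Mcm5, read there as GCGCCAAA.
Ccnb2: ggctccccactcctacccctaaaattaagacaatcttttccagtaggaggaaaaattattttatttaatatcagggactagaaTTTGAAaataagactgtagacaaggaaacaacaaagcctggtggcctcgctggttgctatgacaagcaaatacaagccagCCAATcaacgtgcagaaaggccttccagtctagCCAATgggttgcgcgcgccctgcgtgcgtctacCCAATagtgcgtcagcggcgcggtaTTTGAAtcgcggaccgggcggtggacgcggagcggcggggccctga
Mcm5: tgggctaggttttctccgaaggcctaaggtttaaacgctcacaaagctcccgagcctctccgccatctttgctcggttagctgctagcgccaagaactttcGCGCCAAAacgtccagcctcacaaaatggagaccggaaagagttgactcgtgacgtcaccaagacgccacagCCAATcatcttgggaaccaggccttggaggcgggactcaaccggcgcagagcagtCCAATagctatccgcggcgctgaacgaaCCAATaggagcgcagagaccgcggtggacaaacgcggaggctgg
Ccnb2 itself was at 0.58, -0.80 and -0.34 in day 2 myotubes, against 3.30, 4.55 and 3.94 in proliferating myoblasts (17.3-fold lower, adjusted p = 0.00011). TTTGAA was held by 69.0% of 42 promoters of the mitosis list, 13.2% of 38 promoters of the replication list and 11.9% of promoters of genes tested, and by 18.1% of all promoters in the table. CCAAT was held by 76.2% and 63.2% of promoters of these lists and by 38.4% of those tested. TTTGGCGC or TTTCCCGC was held by 28.9% of the replication promoters and 2.85% of those tested. Among all 1180 promoters of genes called lower the shares were closer to the background, at 15.8% for TTTGAA and 5.85% for the E2F letters.

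**Figure D3:**
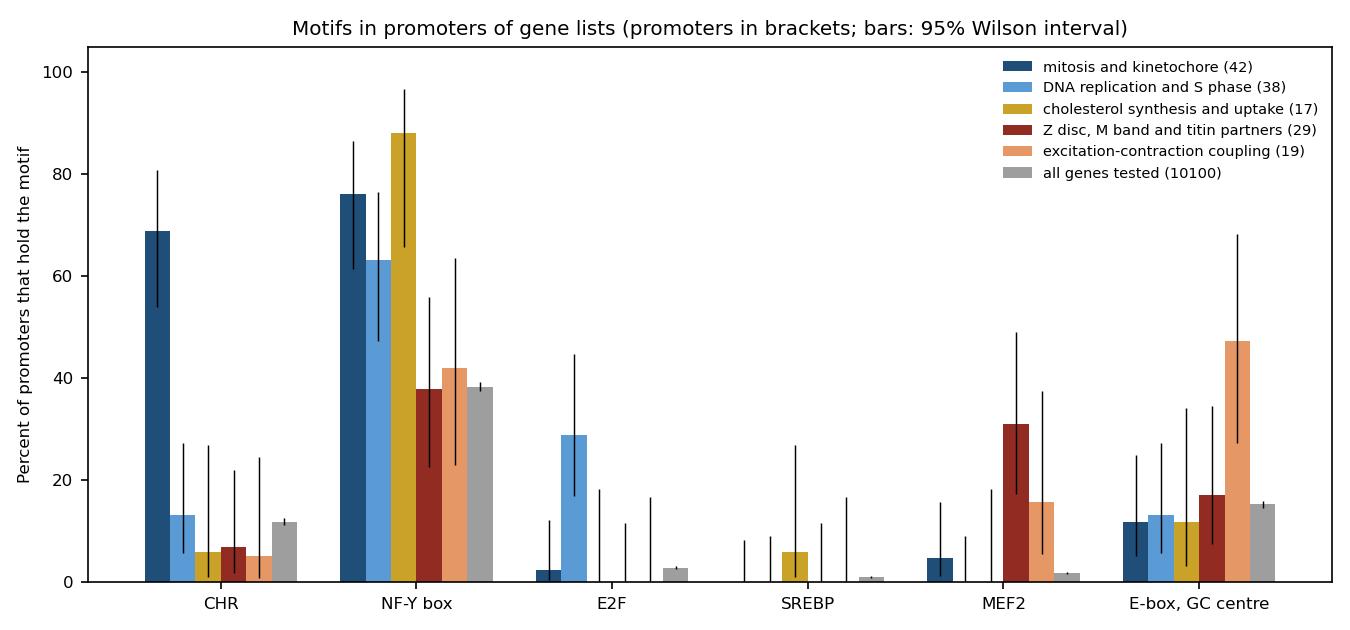
Share of promoters (vertical, percent) that hold each searched motif, for 5 gene lists and all genes tested, with 95% Wilson intervals. The late cell cycle element was in 69.0% of the mitosis list, the NF-Y box in 88.2% of the cholesterol list and the E2F element in 28.9% of the replication list.

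Genes that answer to fibroblast growth factor and ERK signalling were lower in 9 of 18 tested members and higher in 2, Spry1 and Fgfr3, picked out after their values were seen, with a median of -1.25. The count was 14 lower of 20 without the proliferating sample of culture 21, and 1 higher in the 6-sample fit and when any 1 day 2 sample or the proliferating sample of culture 21 or 26 was left out. Etv4, an ETS factor induced by FGF, was at -0.71, 1.03 and -0.64 in day 2 myotubes, against 5.13, 5.05 and 5.15 in proliferating myoblasts. The proliferating samples were nearly identical and the change was -5.22 ± 0.56 (37.3-fold, adjusted p = 4.4e-06). Fosl1, a subunit of AP-1, was 38.8-fold lower (adjusted p = 9e-06), and the feedback phosphatases Dusp4 and Dusp6 were 11-fold (adjusted p = 1.5e-05) and 4.2-fold lower (adjusted p = 0.00039). The receptor Epha2 was 10.8-fold lower (adjusted p = 3.4e-05). Spry4 was above background in 1 of the 6 samples and was not tested. bFGF was in the proliferation medium only, so its withdrawal and differentiation cannot be told apart here.

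Immediate early genes were lower in 4 of 18 tested members. The nuclear receptor Nr4a2 was 49.2-fold lower (adjusted p = 1.5e-06), at -1.69, -1.13 and -1.72 in day 2 myotubes, against 3.03, 4.64 and 4.64 in proliferating myoblasts. The other calls were between 2.64-fold and 3.21-fold and depended on single samples, since 2 members were lower without any 1 day 2 sample or without the proliferating sample of culture 21, and 1 in the 6-sample fit. With the culture as a block Ier5 did not pass (adjusted p = 0.073), nor in the 6-sample fit (adjusted p = 0.21) or with median scaling (adjusted p = 0.066).

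Of 22 listed chemokines and cytokines, 10 were measurable in a group and tested, and 9 of these were lower, with a median of -3.74. The 6-sample fit called 5. Cxcl12, a chemokine that attracts haematopoietic and muscle precursor cells, was at -1.22, 0.63 and -1.02 in day 2 myotubes, against 4.52, 5.61 and 6.01 in proliferating myoblasts (60.3-fold lower, adjusted p = 3.9e-06). Its change was -6.50 without the day 2 sample of culture 26. Csf1, the macrophage growth factor, was at 0.93, 2.26 and 0.77 in day 2 myotubes and at 5.44, 6.23 and 6.22 in proliferating myoblasts (25-fold lower, adjusted p = 4.9e-06). Cxcl1 was 16.4-fold lower (adjusted p = 0.0041). Ccl7 was 20.7-fold lower (adjusted p = 0.01), with -5.04 without the day 2 sample of culture 21, and without that of culture 26 its change was -3.61 and its call was lost. Of the leukocyte markers 1 of 7 tested, Cd14, was lower, 4 of 16 were above background in none of the 6 samples, and the list had a summed linear level of 46.2 to 66.1 in day 2 myotubes, against 27.1 to 96.7 in proliferating myoblasts. Their part in these results was not tested.

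Of 30 tested collagens and matrix genes, 2 were higher and 4 lower, against 15% and 9.97% of all genes tested. Without the proliferating sample of culture 21, 10 of 32 were lower, against 12.2% of all genes tested. Col5a3, a minor fibrillar collagen chain, was 31.1-fold higher (adjusted p = 1.5e-05), and Loxl1, which cross-links elastin, 5.96-fold higher (adjusted p = 0.00085). Col5a3 was not well above background in every sample of both groups, and its change of 4.96 was as small as 3.19 in an alternative setting. Fbln1, the matrix protein fibulin 1, was 16.1-fold lower (adjusted p = 3.1e-06) and Spp1, the gene for osteopontin, 8.52-fold lower (adjusted p = 0.0049). Adamts1 and Adamts5, proteases of matrix proteoglycans, were 9.27-fold (adjusted p = 2.3e-05) and 9.82-fold higher (adjusted p = 0.00066), and the change of Adamts5 was 2.65 without the proliferating sample of culture 28. Of the integrins, Itgb4 was 15.8-fold lower (adjusted p = 2e-06), and Itgb1bp2, the muscle protein melusin that binds integrin β1, was 20.5-fold higher (adjusted p = 9.1e-06; 3.68 on the log2 scale without the proliferating sample of culture 28).

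The genes for the fusogens were higher. Mymk, the membrane protein myomaker, was at 8.09, 8.27 and 7.70 in day 2 myotubes, against 4.71, 4.84 and 2.59 in proliferating myoblasts (15.7-fold, adjusted p = 6.7e-05). Mymx, the fusion peptide myomixer, was at 8.45, 8.43 and 7.83 in day 2 myotubes, against 5.41, 4.70 and 3.34 in proliferating myoblasts (13.5-fold, adjusted p = 0.00014). Both were measurable in every proliferating sample, lowest in culture 28, and without that sample the Mymk change was 3.24 in place of 3.97. Among 32 tested fusion genes, 12 were higher and 4 lower, against 7 and 1 in the 6-sample fit. The integrin subunit gene Itga9 was 9.28-fold higher (adjusted p = 0.00026) and the fatty acid translocase Cd36 at least 7.61-fold higher (adjusted p = 0.0015). For Cd36 the smallest change over the alternative settings was 1.74 on the log2 scale, which is smaller than that bound. The 4 lower members, picked out after their values were seen, were Adgrb1, Anxa1, Dock1 and Kirrel, with folds of 2.95 to 9.72.

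**Figure D4:**
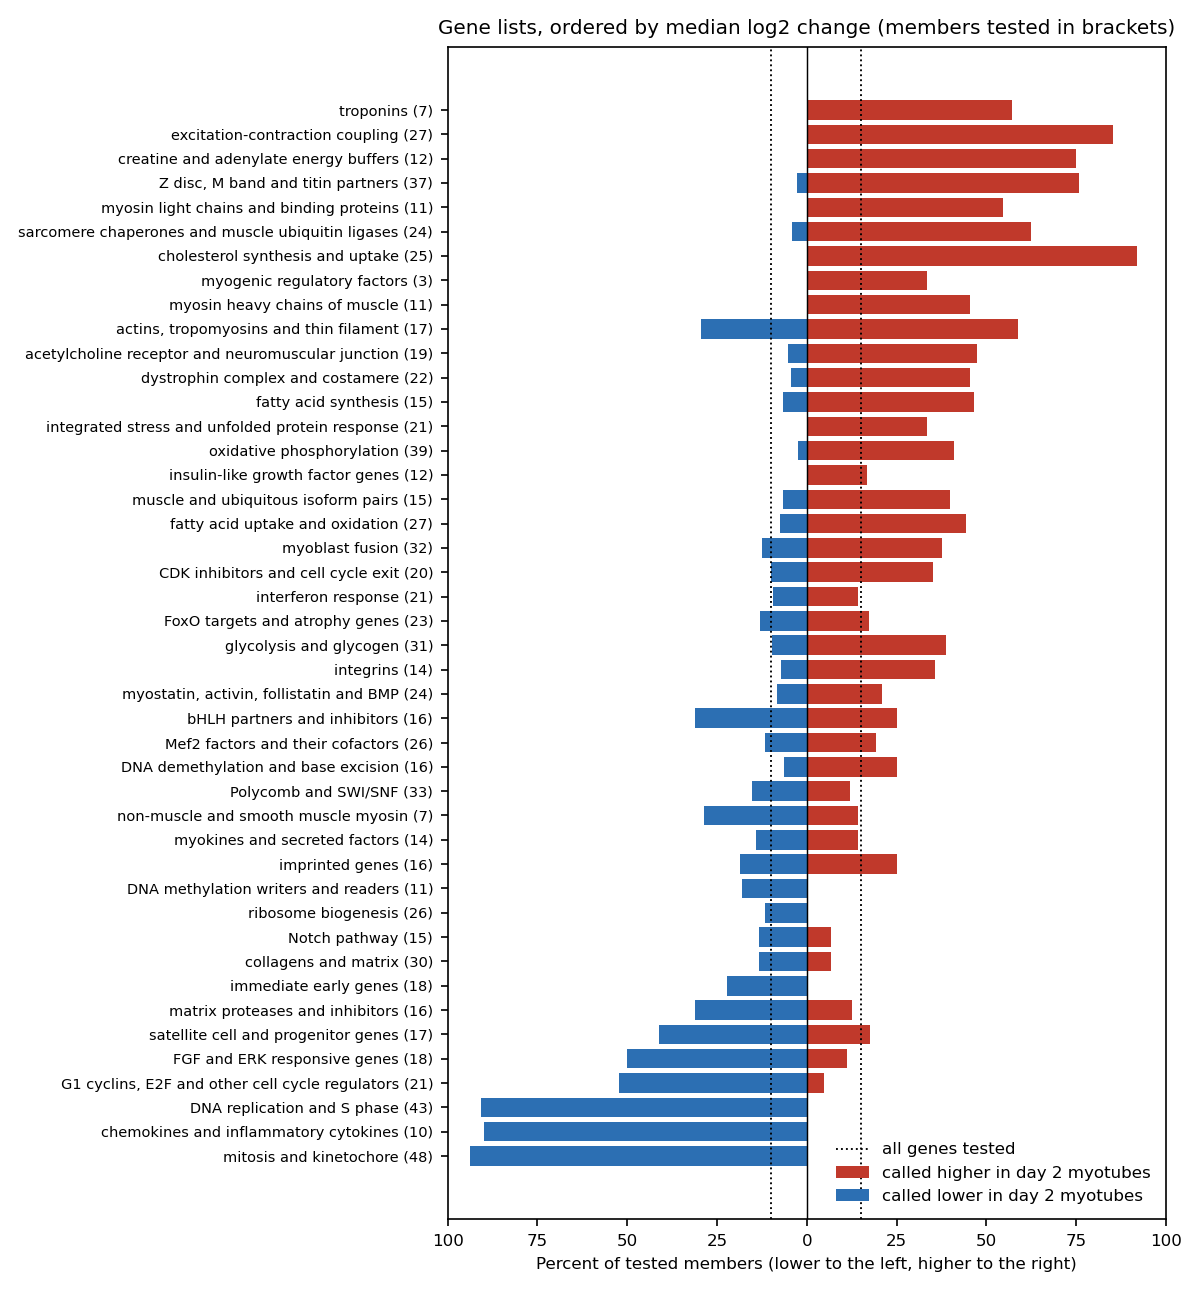
Share of tested members of 44 gene lists called lower (left, blue) and higher (right, red) in day 2 myotubes against proliferating myoblasts, ordered by the list's median log2 change, with the 6 lists of markers of other cells left out. Dotted lines mark 15% and 9.97%, the shares of all genes tested, and the mitosis, replication, cholesterol and excitation-contraction coupling lists lie farthest from them among lists of over 20 tested members.

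Of 37 tested Z disc, M band and titin partner genes, 28 were higher and 1, Pdlim7, lower, with a median of 3.22, or 2.59 without the proliferating sample of culture 28, and 18 were higher in the 6-sample fit. Actn2, which cross-links actin in the Z disc, was at 7.32, 7.16 and 7.41 in day 2 myotubes, against 3.54, 3.04 and 1.44 in proliferating myoblasts. The day 2 samples lay within 0.3 of each other and the proliferating ones did not, and the change was 4.62 ± 0.66 (24.6-fold, adjusted p = 5.3e-05; 4.00 without the proliferating sample of culture 28). Myom2, a protein of the M band, was 24.4-fold higher (adjusted p = 3.7e-06). Capn3, a protease anchored on titin, was 82.2-fold higher (adjusted p = 0.0002) with uneven samples, 6.25, 3.50 and 4.73 in day 2 myotubes and 1.31, -2.34 and -3.58 in proliferating myoblasts, and its change ranged from 5.34 without the proliferating sample of culture 28 and 5.65 without the day 2 sample of culture 21 to 7.03 without the day 2 sample of culture 26 and 7.78 without the proliferating sample of culture 21.

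The myosin heavy chains did not move as one. Of 11 tested, 5 were higher and 0 lower, with a median of 1.82, or 1.63 with bounded members at their bound. The median was 2.86 without the proliferating sample of culture 21, where 7 were higher, 1.28 without that of culture 28 and 0.98 with the authors' deposited values. Embryonic Myh3, the first isoform of regenerating fibres, was at 10.07, 9.70 and 9.42 in day 2 myotubes, against 6.53, 6.91 and 5.91 in proliferating myoblasts (9.73-fold, adjusted p = 0.0038). Perinatal Myh8 was at 10.10, 9.32 and 9.66 in day 2 myotubes, against 6.16, 5.96 and 4.81 in proliferating myoblasts (16.6-fold, adjusted p = 9.7e-06). Adult fast isoforms were measurable too. Myh4, the chain of the fastest fibres, was at 5.28, 2.22 and 4.69 in day 2 myotubes, against -0.64, -2.47 and -2.61 in proliferating myoblasts. In both groups culture 21 was the highest, and the change was 5.97 ± 0.74 (62.6-fold, adjusted p = 1.4e-05), or 5.36 and 6.89 without the day 2 sample of culture 21 and 26 and 6.60 without the proliferating sample of culture 21. Myh1 was 11.5-fold higher (adjusted p = 9.3e-05). Myh2 was 5.72-fold higher (adjusted p = 0.03), a call lost without the day 2 sample of culture 21 or 28 or the proliferating sample of culture 26 and in the 6-sample fit (adjusted p = 0.16). Its change was 0.88 with normexp (adjusted p = 0.31) and 1.28 with the authors' deposited values (adjusted p = 0.063), in place of 2.52. Myh7, the slow chain, overlapped between the groups and did not pass (1.06 ± 1.86, adjusted p = 0.75). These genes lie in a family of near-identical sequences, so signal of one may reach the probe of another.

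Of 7 tested troponins, 4 were higher and 0 lower, and 7 were higher in the fit to 12 samples with the culture as a block. Tnni2, fast troponin I, was at 9.90, 9.62 and 9.62 in day 2 myotubes, against 7.0, 5.50 and 3.56 in proliferating myoblasts. Day 2 samples were alike and proliferating samples were spread over 3.44 units, and the change was 4.36 ± 0.61 (20.5-fold, adjusted p = 4.6e-05), 5.18 without the proliferating sample of culture 21 and 3.46 without that of culture 28. Tnnt3 was 13-fold higher (adjusted p = 2.7e-05; 3.08 without the proliferating sample of culture 28) and Tnnt2, the cardiac isoform made early in skeletal muscle, 9.83-fold higher (adjusted p = 0.0003). Of 17 tested actins, tropomyosins and other thin filament genes, 10 were higher and 5 lower, against 6 and 1 in the 6-sample fit. The lower members, picked out after their values were seen, were Actb, Actg1, Tpm3, Tpm4 and Tmod3, which cells outside muscle also use, with folds of 3.36 to 6.22. Acta1, skeletal actin, was at 10.47, 10.15 and 9.69 in day 2 myotubes, against 8.21, 7.06 and 5.43 in proliferating myoblasts (9.19-fold, adjusted p = 0.00017). Without the proliferating sample of culture 21 its change was 3.86 and without that of culture 28 it was 2.47. Tmod1, which caps the slow-growing end of actin, was 39.2-fold higher (adjusted p = 1.5e-06), and Lmod3, which nucleates it, 17.1-fold higher (adjusted p = 1.5e-06). Actc1 was 5.48-fold higher (adjusted p = 0.026), a call lost without the day 2 sample of culture 21 or 26 or the proliferating sample of culture 28 and with array weights (adjusted p = 0.06). Of 11 myosin light chains and binding proteins, 6 were higher and 0 lower, among them Mybph (15.1-fold, adjusted p = 0.0013), whose change was 4.54 without the proliferating sample of culture 21 and 3.17 without that of culture 28.

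Of 24 tested chaperones and ubiquitin ligases of the sarcomere, 15 were higher and 1, Fbxo32, lower. Unc45b, the chaperone that folds the myosin head, was at 3.81, 3.57 and 3.66 in day 2 myotubes, against 0.14, -1.06 and -1.99 in proliferating myoblasts (25.1-fold, adjusted p = 4.4e-06). Asb2, a ligase adaptor that degrades filamins during differentiation, was 27.2-fold higher (adjusted p = 3.7e-06). The atrophy ligases went opposite ways. Trim63, the gene for MuRF1, was at 4.21, 4.59 and 4.07 in day 2 myotubes, against 2.02, 0.68 and -0.73 in proliferating myoblasts (12.4-fold higher, adjusted p = 0.00019). Fbxo32, the gene for atrogin-1, was at -0.53, -0.94 and -1.06 in day 2 myotubes, against 1.65, 1.15 and 1.69 in proliferating myoblasts (5.06-fold lower, adjusted p = 0.0023). Neither gene's groups overlapped, and the Trim63 change was 4.31 without the proliferating sample of culture 21 and 2.94 without that of culture 28.

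The apparatus that couples membrane depolarisation to calcium release was higher in 23 of 27 tested members and lower in 0, with a median of 3.33, and 19 were higher in the 6-sample fit. Trdn, the gene for triadin, which anchors calsequestrin to the ryanodine receptor, was at 4.92, 4.43 and 5.30 in day 2 myotubes, against -1.71, -0.52 and -0.46 in proliferating myoblasts. The change was 5.78 ± 0.66 (55.1-fold, adjusted p = 6.7e-06). Hrc, a calcium-binding protein of the sarcoplasmic reticulum, was 26-fold higher (adjusted p = 9.1e-06; 4.06 on the log2 scale without the proliferating sample of culture 28). Casq2 was 23.9-fold higher (adjusted p = 0.00019). Casq1, the calsequestrin of fast fibres, was 23.5-fold higher (adjusted p = 0.0013), with a change of 5.16 without the day 2 sample of culture 26 and 5.71 without the proliferating sample of culture 21. Pvalb, the calcium buffer of fast fibres, was at 5.53, 1.70 and 4.55 in day 2 myotubes, against 1.21, -0.57 and -1.85 in proliferating myoblasts, and culture 26 was far below the others on day 2. Its 20.1-fold change (adjusted p = 0.0024) was lost in the 6-sample fit, and on the log2 scale it ran from 3.52 without the day 2 sample of culture 21 and 3.6 without the proliferating sample of culture 28 to 5.44 without the day 2 sample of culture 26 and 5.13 without the proliferating sample of culture 21.

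Of 19 tested genes of the acetylcholine receptor and neuromuscular junction, 9 were higher and 1 lower. The count was 5 without the day 2 sample of culture 26 and 3 in the 6-sample fit, and the lower member, Agrn, was not called with the culture as a block or without the day 2 sample of culture 26 or 28 or the proliferating sample of culture 26 or 28. Chrng, the fetal γ subunit, was at 4.96, 4.33 and 4.33 in day 2 myotubes, against 2.33, 2.41 and 1.10 in proliferating myoblasts (6.04-fold, adjusted p = 0.0013). Chrne, the adult ε subunit, was above background in 1 of 3 samples of each group and was not tested. Chrna1 was at 9.19, 9.01 and 8.84 in day 2 myotubes and at 8.07, 8.24 and 7.75 in proliferating myoblasts, without overlap, and missed the threshold (0.99 ± 0.37, adjusted p = 0.052). It passed with normexp, median scaling, the authors' deposited values and averaged probes (adjusted p = 0.0087, 0.024, 0.042 and 0.033). Musk, the kinase that clusters the receptor, was 4.62-fold higher (adjusted p = 0.00059). In the dystrophin complex and costamere list, 10 of 22 were higher and 1, Dtnb, lower, with 2 lower without the proliferating sample of culture 21, against 3 and 1 in the 6-sample fit. Dystroglycan, Dag1, was 9.36-fold higher (adjusted p = 2.5e-05).

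Energy buffers of muscle were higher in 9 of 12 tested members and lower in 0, with a median of 3.26, and 6 were higher in the 6-sample fit. Ckm, muscle creatine kinase, was at 5.77, 6.14 and 5.93 in day 2 myotubes, against 1.11, 0.98 and -3.19 in proliferating myoblasts (79.7-fold, adjusted p = 5.4e-05). The proliferating sample of culture 28 was more than 4 units below the others, and without it the change was 4.91 in place of 6.32, while it was 7.05 and 6.99 without the proliferating sample of culture 21 and 26. Ckb, the brain isoform, was also higher, 20.5-fold (adjusted p = 5.1e-06; 3.73 on the log2 scale without the proliferating sample of culture 28). Myoglobin, Mb, was 7.0-fold higher (adjusted p = 0.0038), lost in the 6-sample fit, with a change of 3.48 without the proliferating sample of culture 21. Of 31 tested genes of glycolysis and glycogen, 12 were higher and 3 (Pfkl, Pgam1 and Pygb) lower, against 6 and 0 by limma in the 6-sample fit, where 2 were lower at an unadjusted p under 0.05, and with 1 lower without the day 2 sample of culture 28 or the proliferating sample of culture 26. The insulin-regulated glucose transporter Slc2a4 was 17.5-fold higher (adjusted p = 0.00012).

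Of 39 tested oxidative phosphorylation genes, 16 were higher, 1, Atp5c1, was lower, and 38 had a positive change with a median of 0.95. The changes ran from -1.92 to 1.71. The lowest was Atp5c1, whose second probe changed by 0.83, and with its probes averaged the change was -0.54 and the call was lost (adjusted p = 0.74). Ndufs4, a subunit of complex I, was at 6.24, 6.34 and 6.52 in day 2 myotubes, against 4.69, 5.15 and 4.14 in proliferating myoblasts (3.27-fold, adjusted p = 0.0012). Uqcrb, of complex III, was 3.07-fold higher (adjusted p = 0.0015). By limma the 6-sample fit called 0 of the list, with 14 higher and 1 lower at an unadjusted p under 0.05, where Ndufs4 and Uqcrb had an adjusted p of 0.074 each, the authors' values gave 10 higher and median scaling 31 higher. The heart and muscle isoform of a cytochrome oxidase subunit, Cox6a2, was 16.3-fold higher (adjusted p = 0.00013; 4.75 on the log2 scale without the proliferating sample of culture 21 and 3.28 without that of culture 28).

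Genes of cholesterol synthesis and uptake were higher. Of 25 tested members, 23 were higher and 0 lower, with a median of 2.54, and 16 were higher in the 6-sample fit. Within slides the median was 2.14, 3.32 and 2.65. Idi1, the isomerase that makes the activated isoprene units (probe at chr13:8891524-8891583 of mm9), was at 4.72, 4.79 and 4.17 in day 2 myotubes, against -1.31, 0.31 and -0.22 in proliferating myoblasts. The groups were more than 3 units apart and the change was 4.97 ± 0.41 (31.3-fold, adjusted p = 9.8e-07). Hmgcs1, the synthase before the rate-limiting step, was at 5.63, 5.88 and 4.89 in day 2 myotubes, against 1.48, 2.58 and 2.26 in proliferating myoblasts (10.3-fold, adjusted p = 3.3e-06). Nsdhl, a sterol dehydrogenase, was 13.6-fold higher (adjusted p = 2.2e-06). Medium and serum differed between the groups, and the part of serum lipid supply in these values was not tested.

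The Hmgcs1 promoter (chr13:119690101-119690400, plus strand) is shown with CCAAT, here as ATTGG, and TCACNCCAC, the sterol regulatory element letters, in capitals.
Hmgcs1: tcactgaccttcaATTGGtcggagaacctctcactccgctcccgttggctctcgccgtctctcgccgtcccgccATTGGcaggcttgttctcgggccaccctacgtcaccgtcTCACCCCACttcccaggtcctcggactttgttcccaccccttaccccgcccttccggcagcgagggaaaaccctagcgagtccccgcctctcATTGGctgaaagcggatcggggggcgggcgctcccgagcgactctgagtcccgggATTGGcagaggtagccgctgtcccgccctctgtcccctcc
CCAAT was held by 15 of 17 promoters of the cholesterol list (88.2%), against 38.4% of those tested. TCACNCCAC was held by 1 of the 17 (5.88%), the Hmgcs1 promoter shown here, against 1.11% of those tested. The window covers only 300 bases.

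In fatty acid synthesis 7 of 15 tested members were higher and 1, Fads1, lower. Fads1 was not called with the culture as a block, without any 1 day 2 sample or without the proliferating sample of culture 26, and 2 members were lower without the proliferating sample of culture 21. The 6-sample fit called 5 higher and, by limma, 0 lower, with 1 lower at an unadjusted p under 0.05. Scd1, the desaturase that makes oleate, was at 3.87, 3.97 and 3.02 in day 2 myotubes, against -1.86, -1.96 and -3.50 in proliferating myoblasts (66.9-fold, adjusted p = 1.4e-06). Its relative Scd2 was 18.5-fold higher (adjusted p = 3.5e-06). Thrsp, a small protein that promotes lipogenesis, was not above background in proliferating myoblasts and was at least 28.1-fold higher (adjusted p = 8.3e-05). Its smallest change over the alternative settings was 3.33 on the log2 scale, which is smaller than that bound. Cpt1a, which lets fatty acids into mitochondria, was 9.10-fold lower (adjusted p = 5.5e-06). In the list of fatty acid uptake and oxidation 12 of 27 were higher and 2, Cpt1a and Slc27a1, lower, against 2 and 2 in the 6-sample fit. Of 5 tested adipocyte markers, 1 was higher (Pnpla2) and 1 lower (Cebpa), with a summed linear level of 8.50 to 16.4 in day 2 myotubes, against 4.18 to 7.83 in proliferating myoblasts, and with Adipoq, Fabp4, Lep, Retn and Cidec above background in none of the 6 samples. The Pnpla2 call was lost in the 6-sample fit (adjusted p = 0.081). Their part in these results was not tested.

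Several secreted factors changed by large amounts in opposite directions. Fgf21, a hormone made by stressed muscle and liver, was at 5.31, 5.24 and 7.19 in day 2 myotubes, against 1.42, 0.50 and -0.42 in proliferating myoblasts (42.6-fold higher, adjusted p = 7.2e-05; 4.78 on the log2 scale without the day 2 sample of culture 28). Angptl4, an inhibitor of lipoprotein lipase, was at -1.85, -0.21 and -2.61 in day 2 myotubes, against 5.84, 3.86 and 3.70 in proliferating myoblasts (65.0-fold lower, adjusted p = 2.5e-05; -6.70 without the day 2 sample of culture 26 and -5.34 without the proliferating sample of culture 21). Fndc5, the precursor of irisin, was 13.4-fold higher (adjusted p = 2.9e-05), and Apln, the gene for apelin, 53.5-fold lower (adjusted p = 1.2e-05). Apln was not well above background in every sample of both groups. Its change of -5.74 was as small as -3.38 in an alternative setting. Over this list 2 of 14 tested members were higher and 2 lower, near the background, and 3 were higher and 4 lower without the proliferating sample of culture 21.

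In the growth factor lists, Igf2 was at 5.64, 5.25 and 4.91 in day 2 myotubes, against 2.29, 3.68 and 2.5 in proliferating myoblasts (5.42-fold higher, adjusted p = 0.0029). Igf2 was 1 of 2 higher members among 12 tested insulin-like growth factor genes, near the 15% of all genes tested. The list median was 0.73, or 0.59 with bounded members at their bound. The other higher member, Igf2r, was lost with the culture as a block and without 4 of the 6 samples left out in turn. These were any 1 day 2 sample and the proliferating sample of culture 21. The Igf2r call was also lost in the 6-sample fit (adjusted p = 0.19), with quantile normalization (0.096), with the authors' deposited values (0.089), with no filter (0.067) and with array weights (0.068). H19, the imprinted transcript next to Igf2, was at 10.80, 10.47 and 10.14 in day 2 myotubes and at 11.20, 10.12 and 9.57 in proliferating myoblasts, which overlap (0.17, adjusted p = 0.90). This is its brightest probe, and its other probes changed by 0.65, 0.78, 1.04, 1.04, 0.99 and -0.23. Igfbp5 overlapped between the groups (1.08, adjusted p = 0.31) and passed without the proliferating sample of culture 26 (1.92, adjusted p = 0.048). Tgfb3 was 10.5-fold higher (adjusted p = 0.00054) and Smad6, an inhibitor of BMP signalling, 6.08-fold lower (adjusted p = 0.00017). Mstn, the gene for myostatin, was at 1.04, -3.62 and -0.05 in day 2 myotubes, against -2.39, -4.52 and -3.20 in proliferating myoblasts. Culture 26 was low in both groups, and the change of 2.49 did not pass (adjusted p = 0.086), but passed with the culture as a block (adjusted p = 0.0072), with quantile normalization, median scaling and the authors' deposited values (adjusted p = 0.034, 0.025 and 0.036) and without the day 2 sample of culture 26 (3.87, adjusted p = 0.0063).

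Genes of the unfolded protein and integrated stress responses were higher in 7 of 21 tested members and lower in 0, against 2 and 0 in the 6-sample fit. The count was 4 with the culture as a block and 4 without the day 2 or the proliferating sample of culture 28, with 2 lower without that proliferating sample, and the authors' values gave 4 higher and 2 lower. Dnajb9, a chaperone of the endoplasmic reticulum, was at 2.54, 2.93 and 4.56 in day 2 myotubes, against -0.59, 0.70 and 0.47 in proliferating myoblasts (8.88-fold, adjusted p = 0.00019; 2.54 on the log2 scale without the day 2 sample of culture 28). Herpud1, of the degradation machinery there, was at 4.79, 5.49 and 6.23 in day 2 myotubes, against 3.16, 2.85 and 2.24 in proliferating myoblasts (6.74-fold, adjusted p = 0.00022). For both genes culture 28 was the highest on day 2.

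Of the genes that write, copy and read DNA methylation, Uhrf1 and Dnmt1 were lower. Uhrf1, which brings the maintenance methyltransferase to the fork, was at -0.80, -0.59 and -1.47 in day 2 myotubes, against 4.64, 4.62 and 3.94 in proliferating myoblasts (41-fold, adjusted p = 9.3e-06). Dnmt1, that methyltransferase, was at -0.91, -0.99 and -1.23 in day 2 myotubes, against 0.92, 2.08 and 1.25 in proliferating myoblasts (5.48-fold, adjusted p = 3.3e-05). They were the 2 members called of 11 tested, and 4 of 13 were lower without the proliferating sample of culture 21. The de novo enzymes did not pass, Dnmt3a with 1.04 (adjusted p = 0.11, and 0.046 and 0.037 without the day 2 sample of culture 26 and the proliferating sample of culture 28) and Dnmt3b with -0.55 (adjusted p = 0.27). The other Dnmt3b probes changed by -0.91 and -1.38. Among demethylation genes, 4 of 16 tested were higher (Apobec2, Polb, Tet1 and Tet2) and 1, Xrcc1, lower, with 2 higher without any 1 day 2 sample. In the 6-sample fit Apobec2 was called, and Polb, Tet1, Tet2 and Xrcc1 were not (adjusted p = 0.095, 0.18, 0.24 and 0.21). Xrcc1 was also lost with median scaling (adjusted p = 0.23). Apobec2, a muscle member of the cytidine deaminase family, was at 3.20, 3.00 and 3.21 in day 2 myotubes, against 0.24, -0.02 and -1.03 in proliferating myoblasts (10.6-fold higher, adjusted p = 1.2e-05). Of the TET dioxygenases, Tet2 had a 4.68-fold change (adjusted p = 0.024), which was 1.07 on the log2 scale and lost without the proliferating sample of culture 21, 2.97 without that of culture 28, and lost without any 1 day 2 sample and with its probes averaged (adjusted p = 0.053). Tet1 was 2.17-fold higher (adjusted p = 0.044), a call lost without every single sample except the proliferating one of culture 21, with normexp (0.64, adjusted p = 0.2), with its probes averaged (0.65, adjusted p = 0.24) and with the slide as a block (adjusted p = 0.059), and 1 of its 3 probes changed by -0.15. Tet3 (0.06, adjusted p = 0.94) and Tdg (0.15, adjusted p = 0.80) overlapped between the groups. Their other probes changed by 0.96 and -0.38 for Tet3 and by 0.18 and -0.82 for Tdg. Ezh2, the methyltransferase of Polycomb complex PRC2, was 5.16-fold lower (adjusted p = 4.7e-05), while its list as a whole had 4 of 33 higher and 5 lower, near the background, with 2 higher with the culture as a block, 0 (4 at an unadjusted p under 0.05 by limma) and 2 in the 6-sample fit, and 3 lower without the day 2 sample of culture 26.

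The 12 higher and 12 lower genes with the largest folds, among called genes measurable in all 6 samples whose groups did not overlap, included several that no list holds. Ptgds, a prostaglandin D synthase (probe at chr2:25322232-25322291 of mm9), was at 4.73, 4.95 and 4.56 in day 2 myotubes, against -1.27, -2.87 and -3.79 in proliferating myoblasts (168-fold higher, adjusted p = 5e-07). Its change of 7.39 was 8.08 without the proliferating sample of culture 21. Tspan13, a tetraspanin, was at 6.26, 5.08 and 6.08 in day 2 myotubes, against 0.09, -0.54 and -0.42 in proliferating myoblasts (68.6-fold higher, adjusted p = 1.3e-07). Galnt6, which starts mucin-type sugar chains, was 57.7-fold higher (adjusted p = 1e-05), and C1qtnf3, a secreted protein of the C1q and TNF family, 45.3-fold higher (adjusted p = 1.7e-05). The matrix protein Mfap4 was 92.0-fold higher (adjusted p = 1.8e-05; 7.44 on the log2 scale without the proliferating sample of culture 21).

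Sct, the gene for the gut hormone secretin, was at 4.11, 3.1 and 2.39 in day 2 myotubes, against 10.60, 9.76 and 9.04 in proliferating myoblasts (97.0-fold lower, adjusted p = 5.1e-06). It was measurable in every sample of both groups. Gzmd, the gene for a granzyme protease, was not above background in any day 2 sample and was at 2.76, 2.51 and 2.63 in proliferating myoblasts, which makes it at least 101-fold lower (adjusted p = 1.3e-07), but granzyme genes are near-identical copies and their probes may share signal. The histone genes H1f5 and H2ac4 were 115-fold (adjusted p = 1.5e-05) and 89.6-fold lower (adjusted p = 7.7e-06) and carry the same limit. Their changes of -6.84 and -6.49 were -6.04 and -5.79 without the proliferating sample of culture 21, and -7.61 and -7.21 without that of culture 28.

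Day 2 was set beside its neighbours in time. These comparisons share the day 2 samples with the comparison above and are given side by side. Against day 1, 114 of 19018 genes were higher on day 2 (0.599%) and 412 lower (2.17%). Against day 2, 44 of 17753 were higher on day 4 (0.248%) and 11 lower (0.062%). The counts rested on few samples. For day 2 against day 1 the higher count was 58, 55 and 38 without a day 2 sample, 17, 21 and 152 without a day 1 sample, and 9 with the culture as a block over 12 samples, and the lower count was 263, 259 and 212, then 171, 184 and 461, and 58. For day 4 against day 2 the higher count was 9, 45 and 44 without a day 4 sample, 20, 31 and 28 without a day 2 sample and 1 with the block, and the lower count was 4, 7 and 8, then 5, 7 and 2, and 0 by limma with the block, where 552 genes were lower at an unadjusted p under 0.05. The fit to these 6 samples called 0 in both directions, with 581 higher and 458 lower at an unadjusted p under 0.05.

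Genes of cell division were lower on day 2 than on day 1. Of 45 mitosis genes tested between day 2 and day 1, 41 were lower on day 2, as were 22 of 43 replication genes. Ccnb1 averaged 3.86 in proliferating myoblasts, 2.88 on day 1, -1.88 on day 2 and -0.64 on day 4, and day 2 was 27.1-fold below day 1 (adjusted p = 0.002). Bub1b changed by -4.91 on the log2 scale between day 1 and day 2 (adjusted p = 0.0011), Mcm3 12.5-fold lower (adjusted p = 0.00082) and Ccnd1 6.68-fold lower (adjusted p = 0.0025). With the culture as a block the adjusted p was 0.062 for Ccnb1 and 0.049 for Bub1b, Mcm3 and Ccnd1. For Nek2, Bub1, Mcm5, Top2a, Nuf2, Mki67, Kif23 and Cenpe it was between 0.052 and 0.12, and for Tk1 and Chaf1b it was 0.049. By contrast Myog averaged 8.29 on day 1, 7.91 on day 2 and 7.17 on day 4, and neither step passed (adjusted p = 0.91 and 0.88). Cdkn1c averaged 8.07, 8.17 and 4.85, and its change of -3.32 between days 2 and 4 did not pass (adjusted p = 0.076).

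Genes of the finished fibre were still higher on day 2 than on day 1 in a few cases. Mb was 7.60-fold higher (adjusted p = 0.02), Mybpc1 5.10-fold higher (adjusted p = 0.037) and Pvalb 15.3-fold higher (adjusted p = 0.032), and all were lost without 4 of the 6 samples left out in turn and with the culture as a block. Tspan13 was 9.17-fold higher on day 2 than on day 1 (adjusted p = 0.00082) and Tac4, a tachykinin precursor, 15.1-fold higher (adjusted p = 0.0011), and both held without each single sample. Fbln1 and Itgb4 were 8.53-fold (adjusted p = 0.0011) and 5.11-fold lower (adjusted p = 0.0022) on day 2 than on day 1 and also held. Lss, the enzyme that closes the sterol rings, averaged -0.73 in proliferating myoblasts, 2.66 on day 1, 1.10 on day 2 and -0.77 on day 4, with adjusted p = 0.023 for day 2 against day 1 and 0.03 for day 4 against day 2, each lost without 4 of 6 single samples. Ndrg2 was 10.8-fold higher on day 4 than on day 2 (adjusted p = 0.0017) and the endoplasmic reticulum protein Serp1 4.14-fold lower (adjusted p = 0.0067). Both held without each single sample, and neither passed with the culture as a block (adjusted p = 0.056 and 0.15).

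**Figure D5:**
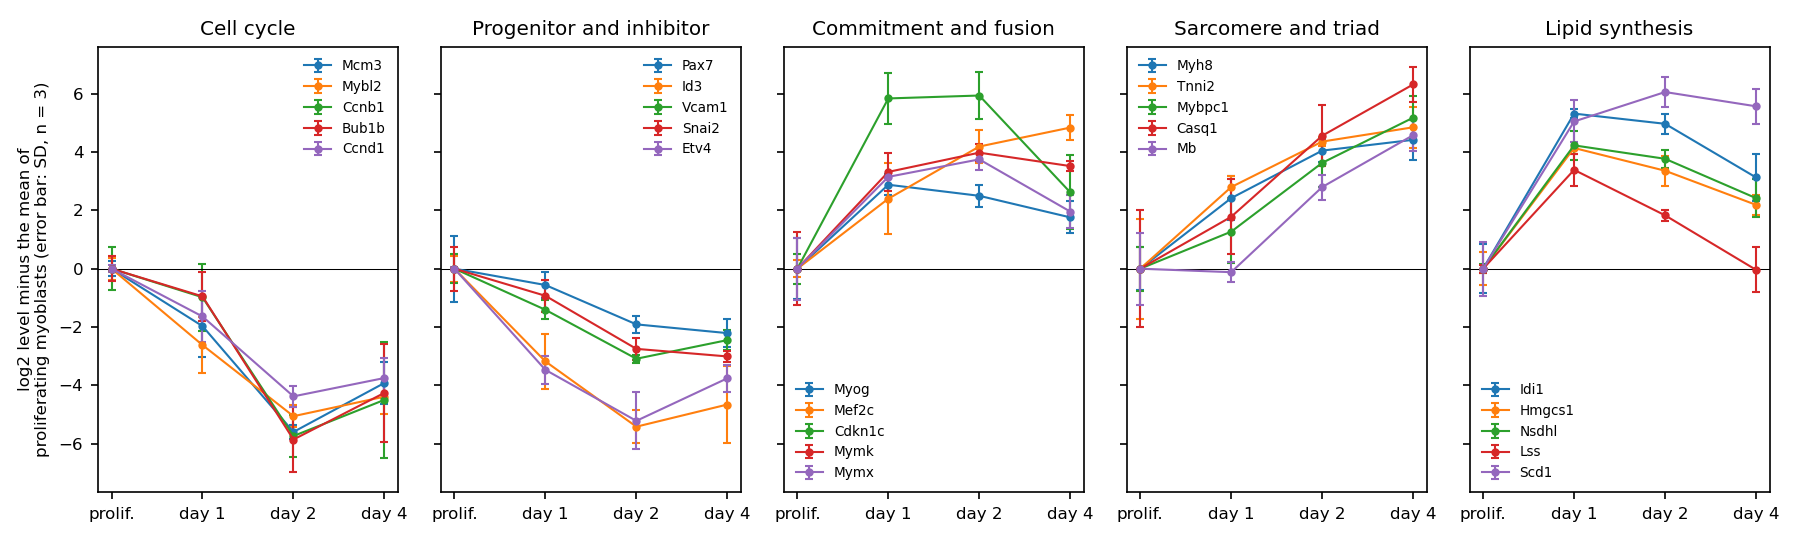
Mean level of 25 genes relative to their own mean in proliferating myoblasts (vertical, log2 units, error bar SD of 3 samples) in proliferating myoblasts and on days 1, 2 and 4 of differentiation. Myog, Cdkn1c and Idi1 were near their day 2 level already on day 1, while Ccnb1 and Bub1b had most of their drop between days 1 and 2.

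Markers of other cell types were read for every list beside these results. Of 8 tested fibroblast and fibro-adipogenic markers, 1 was higher (Fap, not called without the day 2 or the proliferating sample of culture 28) and 2 lower (Ly6a and Thy1), with a summed linear level of 29.5 to 31.8 in day 2 myotubes, against 14.2 to 33.7 in proliferating myoblasts, and Dpt and Lum were above background in none of the 6 samples. The 6-sample fit called 1 of these higher and, by limma, 0 lower, with 2 lower at an unadjusted p under 0.05, and with normexp Fap (adjusted p = 0.14) and Ly6a (adjusted p = 0.059) were not called. Of 8 smooth muscle and pericyte markers, 3 were higher and 1 lower (Rgs5), with a summed level of 647 to 999 in day 2 myotubes, against 169 to 391 in proliferating myoblasts. Bright probes weigh most in such a sum, this list includes the muscle gene Des, and its median change was -0.16. The higher members were Des, Smtn and Acta2, and the Acta2 call was lost without any 1 sample but the proliferating sample of culture 26, while Myh11, Myocd and Lmod1 were above background in no sample. The 6-sample fit called 1 higher and 1 lower. Of 7 endothelial markers, 2 were higher (Cldn5 and Vwf) and 0 lower, with 1 higher without the day 2 sample of culture 21 or 28 or the proliferating sample of culture 26 and with a summed level of 14.2 to 17.2 in day 2 myotubes, against 12.3 to 52.1 in proliferating myoblasts, and 10 of 18 were above background in no sample. By limma the 6-sample fit called 0 endothelial markers higher, with 2 at an unadjusted p under 0.05, and Cldn5 was not called with normexp either (adjusted p = 0.084). Of 8 Schwann cell and nerve markers, 1 was higher (Erbb3) and 2 lower (Gap43 and Nefm, and 4 without the proliferating sample of culture 21), with a summed level of 4.66 to 8.69 in day 2 myotubes, against 4.97 to 9.99 in proliferating myoblasts. The part of other cells in the results was not tested. In bulk RNA, fewer cells of a type and less RNA per cell cannot be told apart, and this holds for unfused myoblasts among the myotubes.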

How the data were processed

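RNA of 6 samples (100 ng each, labelled with Cy3) was hybridised to 1-colour Agilent arrays, 1 array a sample. Per the file headers, the deposited intensities are Feature Extraction 10.7.3.1 processed signals, background-subtracted and detrended, with no scaling between arrays, and probe positions are on mm9. The authors' deposited log2 values were used as an alternative. Their medians lay between 6.76 and 6.8 on every array, each of the 23 columns correlated best with its own scanner file, and their normalization is not given in the sources used here. The number of arrays limits the precision.

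Log2 signals were set relative to each array's 75th percentile over 59305 spots that were not controls, spots flagged as outliers were left out, and spots of a probe were averaged. A gene was read from its brightest probe over all arrays, which gave 36095 gene names, through RefSeq accessions for 26582 probes, symbols for 2602 and synonyms for 492, with the file's own name kept for 26005. limma 3.58.1 in R 4.3.3 fitted 21 samples of 7 groups with lmFit and eBayes, with 2 arrays of 1 stem cell sample averaged and a sample of another strain left out. Benjamini-Hochberg adjustment ran over all genes tested. Plots used matplotlib 3.10.9.

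The members and the 50 gene lists were chosen with earlier results of these data known. Genes were named by rule: the 12 highest and 12 lowest changes among calls without overlap, the 4 strongest of each list, a fixed set of marker genes, 5 each way for days 1 and 4, and the 6 strongest bounds each way. The titles give both groups the numbers 21, 26 and 28, and the labels do not say what these mark. The 21-sample fit had no term for them, and the number as a block was an alternative. Deviations of day 2 and proliferating samples from their group means correlated at 0.066, 0.059 and 0.303 for the same number, against a highest value with another number of 0.154, 0.154 and 0.023. Alternatives covered background correction, normalization, filters, probe summary, samples in the fit, array weights, slide and culture as blocks, and each sample left out. Some named genes are not reported here. Promoter letters are RefSeq's on GRCm38.p6.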

Additional observations from a re-analysis of the deposited data

How the results depend on the processing

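For day 2 against proliferating myoblasts, 2755 genes were higher and 1827 lower. Both counts stayed within 1.5 times under normexp, quantile normalization, the authors' values, no filter, the filter in both groups, averaged probes, array weights, the slide as a block and the culture as a block over 12 samples, which gave 2306 and 1660. The lower count was 1062 with median scaling, which gave higher calls 78.3% of all calls in place of 60.1%. That share was 48.9% in the 6-sample fit, which called 717 and 749, and the culture as a replicate block in those 6 samples gave 904 and 865. Leaving out each sample gave 2211 to 2949 higher and 1519 to 2498 lower. Of 248 named genes, 188 kept their call or lack of one in the 6-sample fit and 189 with the filter in both groups, and 229 to 238 when a sample was left out. None of these changed direction in a call. The culture as a block over 12 samples ended the calls of Ier5, Igf2r, Myh9 and Psmb9, made those of Myf6 and Mstn, and changed no other named call. Of 100 counts of list members, 51 stayed within 1.5 times in the 6-sample fit, 75 with median scaling and 84 to 93 when a sample was left out, and of 22 promoter shares of called genes, 11 stayed within their interval in the 6-sample fit.

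For day 2 against day 1, with 114 higher and 412 lower, the lower count was 260 with median scaling, 246 with the filter in both groups, 195 in the 6-sample fit, 58 and 254 with the culture as a block in 12 and 6 samples, and 1163 with array weights. The higher count was 198 with the authors' values, 65 with no filter, 74 with the filter in both groups, 53 in the 6-sample fit, 9 with the block in 12 samples and 1028 with array weights. Leaving out each sample gave 17 to 152 higher and 171 to 461 lower. For day 4 against day 2, with 44 higher and 11 lower, the counts were 85 and 36 with normexp, 70 and 32 with quantile normalization, 150 and 72 with the authors' values, 21 and 4 with the filter in both groups, and 477 and 453 with array weights. The lower count was 24 with median scaling and 5 with no filter. limma called 0 and 0 in the 6-sample fit (581 and 458 at an unadjusted p under 0.05), 1 and 0 with the block in 12 samples (688 and 552) and 0 and 0 with the block in 6 (931 and 812). Leaving out each sample gave 9 to 45 higher and 2 to 8 lower. The cause of these shifts was not tested. Genes near the floor had little signal over background, and bounds are given where no sample of 1 group was above it. Each group had 3 samples. The dim proliferating array was in neither group of the comparisons of days, but it was among the 21 samples that set the spread for their p-values.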

Other observations

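Other groups of genes also held members that changed between day 2 myotubes and proliferating myoblasts. Several enzymes exist as a muscle form and a form found in most cells, and of 15 tested members of such pairs, 6 were higher and 1 lower, against 1 and 0 by limma in the 6-sample fit, where 1 was lower at an unadjusted p under 0.05. Pgam2, the muscle phosphoglycerate mutase, was at 8.86, 7.96 and 7.98 in day 2 myotubes, against 6.34, 4.96 and 2.97 in proliferating myoblasts (11.4-fold higher by limma, adjusted p = 0.00046). Pgam1, the form of other tissues, was 2.5-fold lower (adjusted p = 0.014). The day 2 samples of Pgam2 were alike and the proliferating ones spread out, so its change was 4.30 without the proliferating sample of culture 21 and 2.62 without that of culture 28, and its adjusted p was 0.057 in the 6-sample fit.

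FoxO targets and atrophy genes had 4 of 23 tested members higher and 3 lower, near the shares of all genes, against 2 and 1 in the 6-sample fit. Foxo6, a forkhead factor, was at 4.73, 5.32 and 4.74 in day 2 myotubes, against 1.63, 1.55 and -0.13 in proliferating myoblasts (15.1-fold higher, adjusted p = 9e-06). No sample of either group overlapped, and its call held without each single sample. Sesn1, a stress-induced inhibitor of mTORC1, was 3.81-fold higher (adjusted p = 0.0022; 0.062 in the 6-sample fit). Of 24 tested genes of the myostatin, activin and BMP branch, 5 were higher and 2 lower, near the shares of all genes, against 1 and 1 in the 6-sample fit. Fstl3, a secreted protein that binds activin, was at 1.67, 3.78 and 2.66 in day 2 myotubes, against 1.08, -0.27 and -0.21 in proliferating myoblasts (5.68-fold higher, adjusted p = 0.0015; 0.078 in the 6-sample fit). Fst, the gene for follistatin, was 3.84-fold higher (adjusted p = 0.014), a call lost without the day 2 sample of culture 26 (adjusted p = 0.085), without the proliferating sample of culture 28 (adjusted p = 0.062) and in the 6-sample fit (adjusted p = 0.14).

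Among matrix proteases and their inhibitors, 2 of 16 tested members were higher and 5 lower, with 0 lower by limma in the 6-sample fit, where the 5 had an unadjusted p under 0.05. Timp1, an inhibitor of matrix metalloproteases, was 6.86-fold lower (adjusted p = 0.017), a call lost without the day 2 sample of culture 21 (-2.09, adjusted p = 0.11) or 28 (adjusted p = 0.072), in the 6-sample fit (adjusted p = 0.11) and with array weights (adjusted p = 0.13), and its change was -3.80 without that of culture 26. Itgb6, an integrin subunit that activates latent TGF-β, was at 3.29, 2.72 and 2.86 in day 2 myotubes, against -0.37, 0.31 and -0.41 in proliferating myoblasts (8.65-fold higher, adjusted p = 0.0079).

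Interferon response genes had 3 of 21 tested members higher and 2 lower, near the shares of all genes, with 1 or 2 in either direction when a sample was left out. By limma the 6-sample fit called 0 higher, with 3 at an unadjusted p under 0.05, and 1 lower. The samples were uneven for this list. Its summed linear level was 41.1 to 232 in day 2 myotubes, against 46.2 to 54 in proliferating myoblasts. Its median change was 1.74, -0.47 and 0.05 within cultures 21, 26 and 28. Within slides 1, 2 and 3 it was -0.22, -0.38 and 2.07, and slide 3 held the day 2 sample of culture 21. Stat2, which carries the type I interferon signal, was 3.89-fold higher (adjusted p = 0.0032; 0.13 in the 6-sample fit). Tap1, a peptide transporter of antigen presentation, was 6.36-fold lower (adjusted p = 0.0012). Imprinted genes had 4 of 16 higher and 3 lower, with 2 or 3 higher and 1 to 4 lower when a sample was left out and 1 and 1 in the 6-sample fit. Mest, an imprinted gene of embryonic mesoderm, was at 3.84, 2.21 and 4.76 in day 2 myotubes, against 5.11, 5.33 and 6.38 in proliferating myoblasts (4.02-fold lower, adjusted p = 0.023). Its call was lost without the day 2 sample of culture 26 (-1.31, adjusted p = 0.15), without the proliferating sample of culture 28 (adjusted p = 0.094) in the 6-sample fit (adjusted p = 0.17) and with median scaling (adjusted p = 0.097). Of 7 tested non-muscle and smooth muscle myosin genes, 1 was higher and 2 lower, and by limma the 6-sample fit called 0 in both directions, with 1 higher and 2 lower at an unadjusted p under 0.05. Mylk, the myosin light chain kinase of smooth muscle, was 4.01-fold higher (adjusted p = 0.0014), a call lost in the 6-sample fit (adjusted p = 0.07) and with normexp, where the change was 0.67 in place of 2.0 (adjusted p = 0.13). Myh9 and Myh10, heavy chains of non-muscle myosin, were 2.17-fold (adjusted p = 0.026) and 2.56-fold lower (adjusted p = 0.017). Both calls were lost in the 6-sample fit (adjusted p = 0.24 and 0.2), with median scaling (adjusted p = 0.36 and 0.24) and without the day 2 sample of culture 21 or 28 or the proliferating sample of culture 26, that of Myh10 also without the proliferating sample of culture 28 (adjusted p = 0.051), and with its probes averaged (adjusted p = 0.086), and that of Myh9 with normexp (adjusted p = 0.061) and with the culture as a block (adjusted p = 0.11).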
